A study of Mus musculus with 6 samples.

Results

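The long-term stem cell signature genes are 10 genes whose transcripts are known to be concentrated in the most primitive blood stem cells: Prdm16, Hlf, Mecom, Mllt3, Trpc6, Fgd5, Myct1, Pdzk1ip1, Ctnnal1 and Robo4. They were taken by symbol, as the 23 array probe sets that carry exactly 1 of these symbols, and are 10 of the 18193 genes that the array names in this way. For each gene the probe set with the highest mean signal was the main one. Signals are MAS5 intensities, a summary of the brightness of a probe set on a linear scale, and none lies below a floor of 30. A value of 30 is therefore only an upper bound, and 4 of the 23 probe sets never rose above it.

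Bone marrow depleted of mature lineages was stained for Sca-1 and c-Kit, and cells with both, the LSK gate, were sorted from 3 litters of an F1 cross of C57BL/6 and FVB/n. In each litter an Ercc1-deficient sample (-/d, a knockout allele over a truncated one, d) was set against an Ercc1-proficient litter mate, which was +/+ in litters 1 and 2 and +/d in litter 3, so that the control of litter 3 also carried the truncated allele. Litter 1 was 22 weeks old and litters 2 and 3 were 20 weeks old. Ercc1 encodes a subunit of an endonuclease of nucleotide excision and crosslink repair, and the comparison asked how expression in stem and progenitor cells differs when it is reduced. Whether each array held cells of 1 mouse or of a pool is not given here. The p-values cover only the spread among these 6 arrays, whose small number limits the precision.

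LSK cells are a mixture. Long-term stem cells, which divide rarely and can rebuild the blood for life, are a minority of the gate, and most of it is multipotent progenitors with little self-renewal. The signature genes fall into nuclear regulators (Prdm16, Mecom, Hlf, Mllt3) and genes of the membrane, the cytoskeleton and signalling (Trpc6, Fgd5, Robo4, Pdzk1ip1, Ctnnal1, Myct1). Several of them are also used by endothelial cells. In RNA from a bulk sort, fewer long-term stem cells in the gate and less RNA per cell cannot be told apart.

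Ercc1 had a signal of 79.9, 34.5 and 44.9 in the deficient cells of litters 1, 2 and 3, and of 128, 244 and 176 in the proficient ones, so the groups did not overlap (log2 difference -1.36, adjusted p = 0.0138 in limma with litter as a block). It did not pass in limma without a litter term (adjusted p = 0.9998) or without a variance trend (0.0558). The mean over its probe sets differed less, by -0.90, and did not pass (0.0577). Kit, the gate's receptor, was above the floor on all 6 arrays, between 92.2 and 231. Litter mates resembled each other, and litter 1 stood apart: Xist, the X-inactivation transcript of female cells, was at 114 and 166 on the arrays of litter 1 and between 5087 and 14652 on the others, and the Y-linked gene Uty was at 124 and 82.7 in litter 1 and at the floor elsewhere. Litter 1 thus differed from the others in these sex-linked transcripts and in age, and differences between litters cannot be told apart from either. The difference between genotypes was therefore taken within litters, with litter as a block in limma. In that fit 188 of 22519 probe sets passed, 117 lower (0.52%) and 71 higher (0.315%) in deficient cells, a split that became 139 lower and 193 higher when each array was centred on its median. Without a litter term limma called 0, with 579 at an unadjusted p under 0.05.

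Of the 10 signature genes, 3 fell in Ercc1-deficient cells: Prdm16, Hlf and Trpc6. The other 7 did not pass. None rose. Over all 10885 genes tested, 0.597% fell and 0.514% rose by the same rule. The log2 difference was below 0 for 9 of the 10, all but Mecom, against 53.2% of the genes tested, and the same 9 were lower in the deficient array of all 3 litters, against 17.9%. The median of the 10 was -0.75, and the median of all genes tested was -0.02. The 10 genes were chosen with earlier results of these data known. Trpc6 and Robo4 averaged below the limit for testing, a mean signal of 32.6, in deficient cells and could be tested only because their proficient arrays were brighter. The way these 2 genes entered the test favours their lower values in every litter and the call of Trpc6, and the median of -0.75 includes them. Among the other 8, 7 were lower, the same 7 in all 3 litters, and of these Prdm16 and Hlf were called. The 3 calls rested on the litter term and on having every litter: limma without a litter term called 0 of the 10, with 4 at an unadjusted p under 0.05, and the blocked fit called 0 without litter 1 (5 at an unadjusted p under 0.05), 0 without litter 2 (4) and 0 without litter 3 (4). It also called 0 when all probe sets above the floor on at least 1 array were tested, with 6 at an unadjusted p under 0.05. With 3 pairs the exact two-sided sign-flip permutation test of a single gene can give no p below 0.25, and that of 3 arrays against 3 no p below 0.1.

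**Figure D1:**
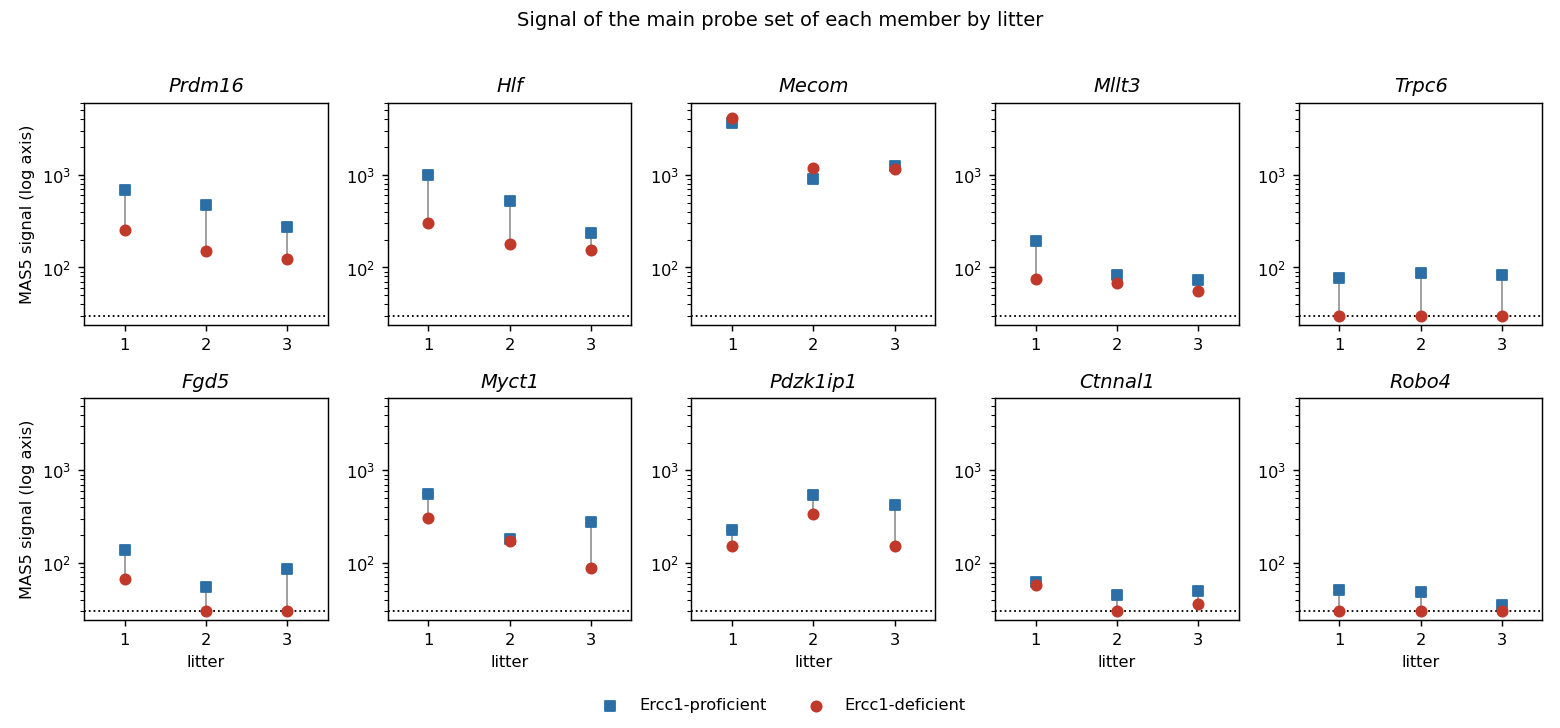
MAS5 signal (log axis) of the main probe set of each of the 10 genes in litters 1 to 3, red circles for Ercc1-deficient and blue squares for Ercc1-proficient arrays, joined within a litter; the dotted line is the floor of 30. The red circle is the lower one in every litter for all genes but Mecom, and Trpc6 and Robo4 lie on the floor in all deficient arrays.

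Prdm16 encodes a zinc finger protein with a PR domain, a regulator of chromatin and transcription that stem cells need for their maintenance. Its main probe set, 1440870_at, had signals of 252, 151 and 125 in the deficient cells of litters 1, 2 and 3. The proficient litter mates had 685, 472 and 274. Every deficient array lay below every proficient one, though the highest deficient value, in litter 1, came close to the lowest proficient value, in litter 3. The groups averaged 176 ± 66.8 and 477 ± 205 (SD, n = 3 each), and the ratio of deficient to proficient was 0.367, 0.321 and 0.456 within the litters. On the log2 scale this was -1.26 ± 0.23 (SE), with a 95% interval of -1.73 to -0.79 (adjusted p = 0.0060 in limma with litter as a block, 0.9998 without). Left out in turn, the litters gave log2 differences between -1.41 and -1.16, none of which passed. The other 3 probe sets of Prdm16 stayed at the floor, except for 37.6 in the deficient cells of litter 1 by one of them and 42.6 in those of litter 3 by another, so the fall rests on a single probe set.

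Mecom, the closest relative of Prdm16 among the signature genes, encodes MDS1-EVI1 and EVI1, zinc finger proteins of the same family that also sustain stem cells. It did not fall. By its main probe set, 1438325_at, the deficient cells of litters 1, 2 and 3 had signals of 4134, 1197 and 1155. The proficient ones had 3678, 899 and 1264. The groups overlapped entirely, while both arrays of litter 1 were above the other 4, 3.46 times their mean. The log2 difference was 0.15 with a 95% interval from -0.33 to 0.62 (adjusted p = 0.835), so a fall as large as that of Prdm16 lies outside the interval; under quantile normalization the sign turned, to -0.04. Within litters, the log2 difference of Prdm16 was below that of Mecom by 1.51, 1.87 and 0.85. The other 2 Mecom probe sets never left the floor, and the platform annotation gives no source transcript for the bright one.

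The promoters of this pair of relatives are shown because they share a stretch while their signals differed. RefSeq windows of assembly GRCm38.p6, from 250 bases before a transcript start to 50 bases after it, were found for all 10 genes, 12 windows in all. The windows below are those of Prdm16 at chr4:154636824-154637123 and of the upstream start of Mecom at chr3:30509710-30510009, both on the minus strand and written 5′ to 3′ along the gene. Capitals mark the longest run that both hold, 24 bases that begin at base 10 after the start of Prdm16 and at base 27 after that of Mecom.
Prdm16: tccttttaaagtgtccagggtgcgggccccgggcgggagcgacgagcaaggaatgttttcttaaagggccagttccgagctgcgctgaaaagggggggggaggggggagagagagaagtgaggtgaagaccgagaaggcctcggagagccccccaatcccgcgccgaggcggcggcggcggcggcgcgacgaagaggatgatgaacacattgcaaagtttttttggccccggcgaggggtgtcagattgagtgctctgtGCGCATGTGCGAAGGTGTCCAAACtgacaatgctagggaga
Mecom: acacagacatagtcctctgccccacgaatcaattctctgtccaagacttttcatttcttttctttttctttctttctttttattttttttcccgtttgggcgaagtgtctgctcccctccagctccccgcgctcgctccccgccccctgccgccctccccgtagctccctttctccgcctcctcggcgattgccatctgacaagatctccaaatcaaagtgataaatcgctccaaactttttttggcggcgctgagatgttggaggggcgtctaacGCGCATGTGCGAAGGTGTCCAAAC
Of 32851 windows in the table, 2 held this run on either strand, namely these. The longest run shared by any other of the 64 pairs of windows of different signature genes was 11 bases, and the median over the pairs was 8.5. The run is a description of the sequence and was not tied to any measurement here.

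Hlf encodes a PAR bZIP transcription factor that marks long-term stem cells and keeps them quiescent. By its main probe set, 1434736_at, litters 1, 2 and 3 gave 304, 179 and 153 when deficient. When proficient they gave 988, 521 and 239. Within every litter the deficient value was lower, but the groups overlapped, because the deficient cells of litter 1 exceeded the proficient ones of litter 3. The means were 212 ± 80.5 and 583 ± 378 (SD, n = 3 each). The ratio was 0.307 and 0.343 in litters 1 and 2 and 0.643 in litter 3. On the log2 scale this was -1.19 ± 0.24 (SE), with a 95% interval of -1.68 to -0.69 (adjusted p = 0.0147 in the blocked fit, 0.0523 when limma used no variance trend, 0.9998 without a litter term). A second probe set, 1434735_at, was also lower in all 3 litters, with a log2 difference of -0.47 (adjusted p = 0.451), and ratios of 0.693, 0.594 and 0.761. The mean of both did not pass (adjusted p = 0.0577).

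Mllt3 encodes AF9, a reader of acylated histones that links chromatin to transcription elongation and is known to support stem cell self-renewal. All of its 3 probe sets were above the floor on all arrays, and each was lower in the deficient array of each litter. By the main one, 1431890_a_at, the deficient values were 75.3, 67.4 and 55.6 and the proficient ones 194, 83.7 and 73.2. Litter 1 held most of the difference, with a ratio of 0.388 against 0.805 and 0.760 in litters 2 and 3. The log2 differences of the 3 probe sets were -0.53, -0.57 and -0.45, none of which passed (adjusted p = 0.411, 0.325 and 0.435 in limma).

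Trpc6 encodes a receptor-activated cation channel. Its only probe set, 1449431_at, was at the floor in all 3 deficient samples. Proficient signals were 77.2, 87.9 and 83.9, so the groups did not overlap. For genes at the floor in every deficient sample, here Trpc6 and Robo4, the way they entered the test favours this. Among the other 8 signature genes, 1, Prdm16, had groups that did not overlap, against 5.23% of genes with the deficient group lower. The signal was at least 2.76-fold higher in proficient cells, by the mean log2 signal against the floor. In the fit on log2(signal + 30) the difference was -0.91 ± 0.19 (SE; adjusted p = 0.0190 in limma blocked by litter, 0.9998 without the litter term, 0.0618 without a variance trend), and this scale understates the change.

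Fgd5 encodes an exchange factor for the small GTPase CDC42 and is used as a reporter gene for stem cells. The deficient value was 67.4 in litter 1 and at the floor in litters 2 and 3. The proficient ones were 140, 55.7 and 86.0, and only the deficient array of litter 1 overlapped them. Its log2 difference was -0.76 (95% interval -1.19 to -0.32, adjusted p = 0.111 in limma with litter as a block), and it passed at 0.0472 in a fit of 10885 genes in place of probe sets. Robo4, a roundabout receptor that helps to anchor stem cells in the marrow, had no deficient value above the floor and 51.0, 48.3 and 35.5 in proficient samples. That is at least 1.48-fold higher in proficient cells, but the log2 difference of -0.31 did not pass (adjusted p = 0.438).

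**Figure D2:**
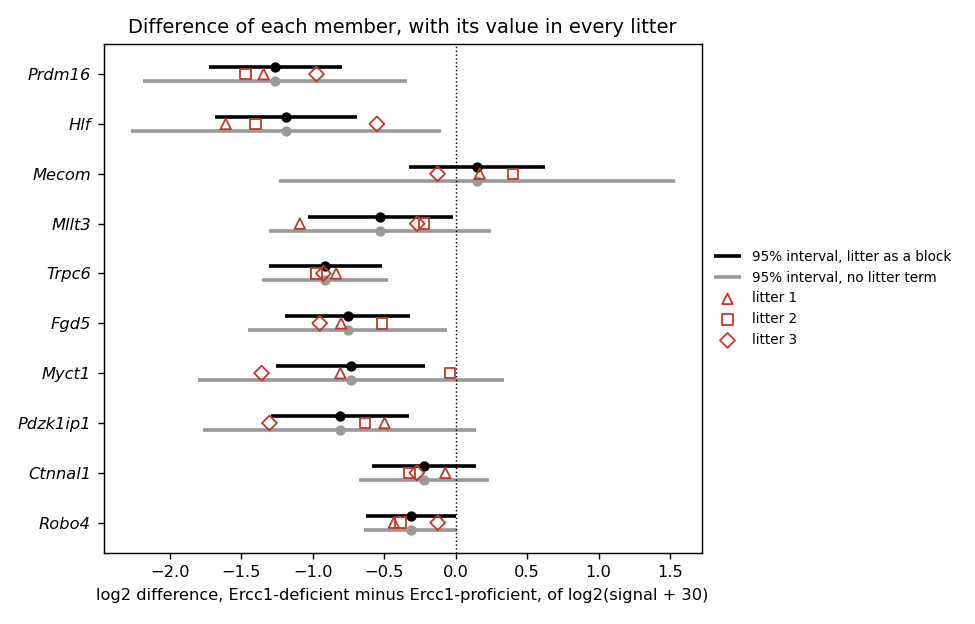
Log2 difference (Ercc1-deficient minus Ercc1-proficient) of the main probe set of each of the 10 genes, with the 95% interval of limma with litter as a block (black) and without a litter term (grey), and the difference within each litter (red symbols). All litters lie left of 0 for every gene but Mecom, and the intervals without a litter term are wider, most of all for Mecom.

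Pdzk1ip1 encodes MAP17, a small membrane protein whose transcript marks primitive stem cells. By probe set 1455477_s_at deficient cells had 153, 339 and 152 and proficient cells 228, 542 and 419 in litters 1, 2 and 3. Each deficient value was the lower within its litter, with ratios of 0.670, 0.625 and 0.363, but the deficient cells of litter 2 exceeded the proficient cells of litter 1. The log2 difference was -0.81 (95% interval -1.29 to -0.33, adjusted p = 0.125 in limma). The second probe set gave -0.58 (adjusted p = 0.386), again lower in all 3 litters.

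Myct1, named as a target of MYC, encodes a membrane protein of endothelial and stem cells, and its probe sets disagreed. The main one, 1447584_s_at, had 306, 175 and 89.0 in deficient and 557, 180 and 275 in proficient cells, with ratios of 0.549, 0.968 and 0.324. A probe set of nearly the same mean signal, 1452072_at, had 145, 351 and 268 in deficient and 106, 295 and 319 in proficient cells. The former was lowest in the deficient cells of litter 3 and the latter lowest in the proficient cells of litter 1, so they did not follow each other over the arrays. Their log2 differences were -0.74 and 0.12 (adjusted p = 0.226 and 0.872 in limma). A further probe set was lower in all 3 litters, with a log2 difference of -0.43, and the fourth never left the floor.

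Ctnnal1 encodes alpha-catulin, a relative of alpha-catenin, and is another reporter gene for stem cells. Its signals stayed near the floor, at 57.8, 30 and 36.1 in deficient and 62.3, 45.1 and 49.8 in proficient cells. The log2 difference was -0.22, with a 95% interval from -0.59 to 0.14 (adjusted p = 0.677). Its other probe set was at the floor on 5 arrays.

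Over all probe sets, 16 of the 23 passed the limit for testing, and 14 of the 23 were lower in the deficient array of all 3 litters. Several of these 14 are of the same gene, such as all 3 of Mllt3, so they do not count separately. Those of Trpc6 and Robo4 were at the floor in deficient cells. By main probe set, 17.9% of genes tested were lower in all 3 litters. The share over all probe sets was not counted. Of the 7 that could not be tested, 4 never left the floor, and the other 3 rose above it on a single array each, a deficient one in each case and never above 44.5. These single values have no replicate.

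The promoters of Hlf, Trpc6 and Myct1 are shown because the first pair fell and because that of Myct1 holds a match to the site of PAR bZIP factors such as HLF. They lie at chr11:90390868-90391167 (minus strand), chr9:8543892-8544191 (plus strand) and chr10:5593478-5593777 (plus strand) in GRCm38.p6 and are written 5′ to 3′ along the gene. Capitals mark matches, on either strand, to GATAA (GATA factors), GGAAG (ETS factors), TGTGGT (RUNX factors), TTANGTAA (PAR bZIP factors) and TGACGTCA (CREB and ATF factors); the motifs do not overlap one another in these windows.
Hlf: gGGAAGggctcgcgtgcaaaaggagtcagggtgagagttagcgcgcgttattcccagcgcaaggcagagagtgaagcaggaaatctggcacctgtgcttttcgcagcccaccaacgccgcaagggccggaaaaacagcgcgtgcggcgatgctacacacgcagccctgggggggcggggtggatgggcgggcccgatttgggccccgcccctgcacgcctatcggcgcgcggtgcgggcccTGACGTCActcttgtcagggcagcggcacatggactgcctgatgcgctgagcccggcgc
Trpc6: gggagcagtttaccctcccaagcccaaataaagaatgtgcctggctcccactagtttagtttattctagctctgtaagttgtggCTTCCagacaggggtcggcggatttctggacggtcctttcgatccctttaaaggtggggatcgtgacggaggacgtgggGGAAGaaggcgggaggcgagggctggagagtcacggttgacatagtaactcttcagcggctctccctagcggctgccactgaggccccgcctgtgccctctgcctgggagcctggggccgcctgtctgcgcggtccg
Myct1: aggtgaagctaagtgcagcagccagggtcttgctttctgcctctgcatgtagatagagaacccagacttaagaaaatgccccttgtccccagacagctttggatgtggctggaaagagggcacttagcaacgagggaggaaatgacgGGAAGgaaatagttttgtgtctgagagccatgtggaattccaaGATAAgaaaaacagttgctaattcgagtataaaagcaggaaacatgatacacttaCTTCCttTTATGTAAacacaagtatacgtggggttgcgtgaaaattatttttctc
The PAR bZIP match of Myct1 begins at base 3 after the start, and 2.32% of all windows hold such a match. The TGACGTCA of Hlf begins 9 bases before the start, and 1.79% of all windows hold it. GGAAG was present in 7 of the 12 windows of signature genes and in 71.4% of all windows, GATAA in 3 of 12 and in 25.4%, and TGTGGT in 0 of 12 and in 16.8%. The 12 windows held between 2 and 37 CG steps, and 8 were above the median of 7 over all windows. Fgd5 had the most, and Robo4 and Pdzk1ip1, with 2 and 3, were among the poorest. In the genome, 4 of the 10 genes are on chromosome 4: Ctnnal1 at chr4:56810935-56865375, Mllt3 at chr4:87769925-88033407, Pdzk1ip1 at chr4:115088708-115093894 and Prdm16 at chr4:154316122-154637360.

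Litters and genotypes shared out the variation of the signature genes differently. Trpc6 and Robo4 are left out of this account, because differences between litters cannot be seen in deficient samples that are all at the floor. On the log2(signal + 30) scale, the share of the sum of squares between genotypes had a median of 38.1% over the other 8 main probe sets and of 9.02% over all genes tested, and that between litters 48.1% against 64.5%. More lay between litters than between genotypes for 5 of the 8, against 82.7% of genes tested. Mecom had 97.6% between litters and 0.753% between genotypes, while Prdm16 had 31.0% and 67.2%. Fgd5, with 2 deficient samples at the floor, had 45.8% and 51.3%. By main probe set, both arrays of litter 1 were above the other 4 for Mecom, Myct1 and Ctnnal1, 3 of 10, against 17.2% of genes. Probe set 1452072_at of Myct1 went the other way, with litter 1 at 0.407 times the mean of the other litters. Pdzk1ip1 was at its lowest mean in litter 1, at 0.526 times that of the others. The median log2 difference of the 10 genes was -0.80, -0.45 and -0.74 in litters 1, 2 and 3.

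**Figure D3:**
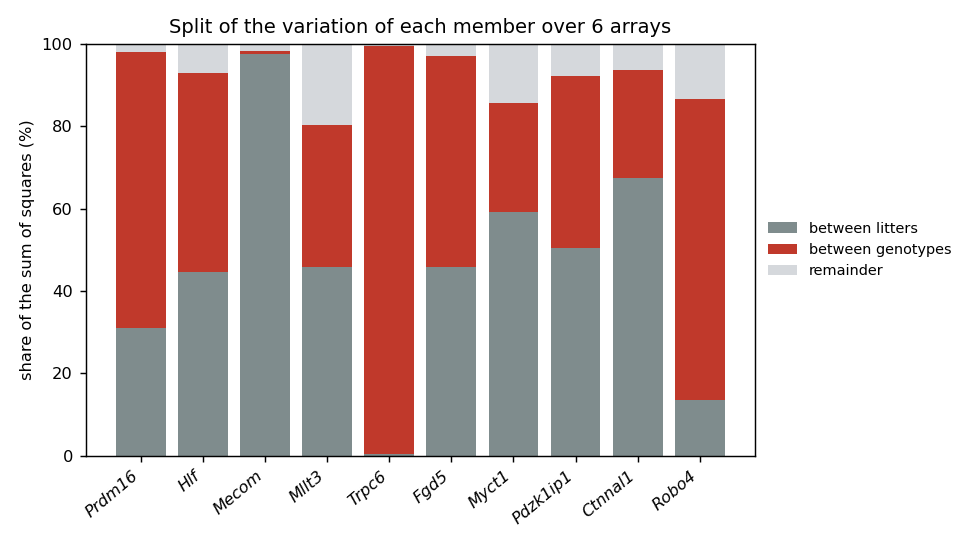
Share of the sum of squares of log2(signal + 30) over 6 arrays that lies between the 3 litters (grey), between the genotypes (red) and in the remainder (light), as stacked bars in percent for the main probe set of each of the 10 genes. The red part is 0.753% in Mecom and 67.2% in Prdm16; the bars of Trpc6 and Robo4 are shaped by the floor, at which all their deficient arrays lie.

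Other genes known from long-term stem cells were examined as a list of 29, of which 27 had a probe set and 24 were tested. Here 20 were lower and 4 higher, the median log2 difference was -0.48, and 4 fell in limma with litter as a block: Procr, Ndn, Ifitm1 and Mmrn1. Among all genes tested, 53.2% were lower and 0.597% fell by the same rule, with a median of -0.02. Tek and Cdkn1c averaged 31.8 and 30 in deficient cells, below the limit for testing of 32.6, and entered through brighter proficient arrays. The way they entered favours their place among the lower genes, and the median of -0.48 includes them. Ramp2, among the higher genes, entered through a single deficient array at 46.9, with every other array at the floor. The list was chosen with earlier results of these data known. Without a litter term 0 passed, with 6 at an unadjusted p under 0.05. Procr, the endothelial protein C receptor by which stem cells are sorted, had 152, 117 and 63.1 in deficient and 353, 213 and 219 in proficient cells (log2 difference -1.07, adjusted p = 0.0275). Mmrn1, which encodes multimerin, had 79.7, 54.5 and 36.2 against 240, 134 and 98.8 (-1.07, adjusted p = 0.0266). In both genes the deficient array was the lower in all litters. Ndn, an imprinted gene that restrains proliferation, had the largest difference of the list, at 57.2, 46.6 and 30 against 147, 356 and 166 (-1.69, adjusted p = 0.0014). Ifitm1, an interferon-induced membrane protein, had 432, 1923 and 564 against 870, 2983 and 1521 (-0.99, adjusted p = 0.0396). Hoxa9 and Meis1, partners in stem cell transcription, had log2 differences of -0.91 and -0.82 that did not pass (adjusted p = 0.0725 and 0.137). Opposite in sign were Gata2 at 0.50, Gstm1 at 0.50, Slamf1 at 0.36 and Ramp2 at 0.12, none of which passed. Slamf1, the CD150 marker of long-term stem cells, had 166, 230 and 66.3 in deficient against 63.6, 148 and 108 in proficient cells.

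Relatives and partners of the signature genes formed a second list, other PRDM, TRPC, FGD and ROBO family members, the PAR bZIP genes Dbp and Tef, and cofactors such as Dot1l, Aff1 and Kmt2a. Of 38, 36 had a probe set and 28 were tested, 18 with a log2 difference below 0 (53.2% of all genes tested), and the median was -0.12. In limma with litter as a block 0 passed, with 2 at an unadjusted p under 0.05, Dbp and Fgd1. Fgd1, Prdm1, Mllt1 and Robo1 were at the floor in every deficient sample, and Prdm11 averaged 31.8 there. All were below the limit for testing of 32.6 in deficient cells and entered through brighter proficient arrays. The way they entered favours their log2 differences below 0, which are among the 18, and the low unadjusted p of Fgd1. Dbp, a PAR bZIP factor like HLF, had a log2 difference of -0.52 (adjusted p = 0.400), and Tef, another, -0.20 (0.769). Trpc1, Trpc5, Fgd6, Robo2, Robo3 and Pdzk1, the binding partner of MAP17, were at the floor on all 6 arrays.

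**Figure D4:**
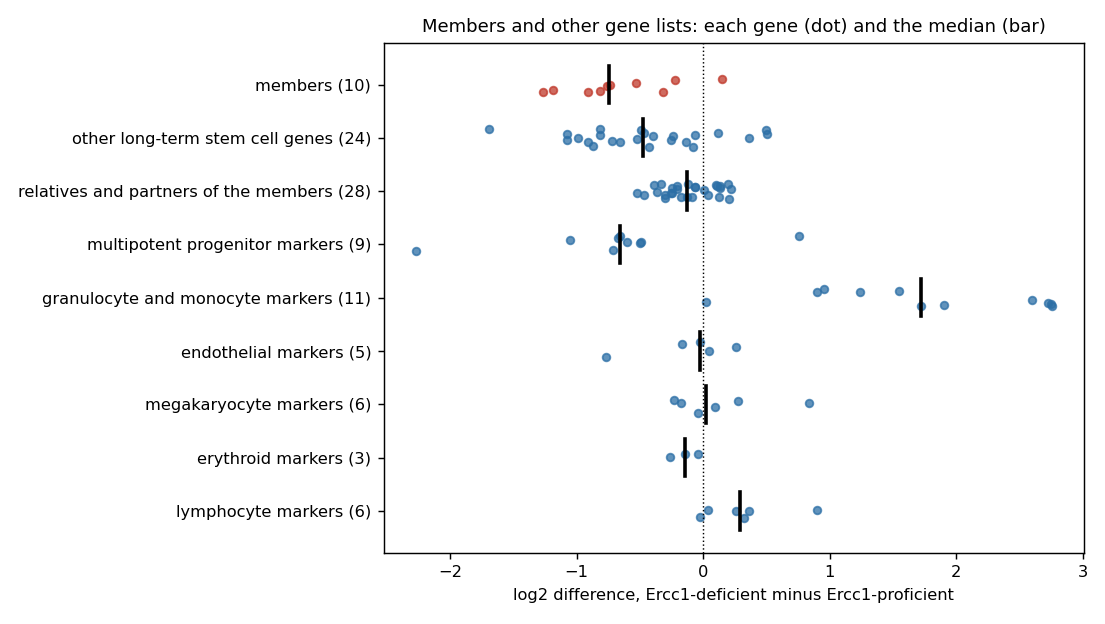
Log2 difference (Ercc1-deficient minus Ercc1-proficient) by the main probe set of each gene tested (dots) and the median (black bar) for the 10 signature genes (red) and for the other gene lists (blue), with the number of genes tested in brackets; vertical scatter within a list has no meaning. The signature genes have a median of -0.75 and the granulocyte and monocyte markers one of 1.72.

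The 5 other genes named here had the profile over the 6 arrays most like the mean profile of the 10 signature genes, each profile being centred on its own mean: Zfp943, Trim44, Mndal, Smad3 and Setd2. The root mean square difference from the mean profile was between 0.063 and 0.094 log2 units for them, and between 0.186 (Mllt3) and 0.713 (Mecom) for the signature genes themselves. Setd2, a histone methyltransferase gene, had 107, 79.6 and 54.7 in deficient and 231, 145 and 121 in proficient cells. Smad3, a transducer of TGF-beta signals, had 271, 217 and 197 against 463, 348 and 295. None of the 5 passed in limma, the adjusted p lying between 0.127 and 0.287, and they were picked for their profile, so their direction is no result.

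Markers of other cells moved with the groups. Of 11 measured granulocyte and monocyte markers, 6 rose (Prtn3, Ctsg, S100a8, S100a9, Camp and Ngp) and 11 had a log2 difference above 0, with a median of 1.72. Of all 10885 genes tested, 0.514% rose by the same rule and 5094 had a log2 difference above 0. Their summed signal was 18346, 67479 and 109370 in deficient and 4071, 23309 and 36145 in proficient cells of litters 1, 2 and 3, so it was higher in the deficient array of each litter. The median log2 difference over the markers was 1.55, 1.22 and 1.53. Of 9 measured markers of multipotent progenitors, 2 fell, Flt3 and Dntt, 8 had a log2 difference below 0, and the median was -0.66. Over all genes tested, 0.597% fell and 53.2% had a log2 difference below 0. The exception in sign, Cd48, a marker of progenitors past the stem cell stage, had 465, 581 and 417 in deficient against 180, 341 and 325 in proficient cells (log2 difference 0.76, adjusted p = 0.153 in limma). The part of these shifts in the fall of Prdm16, Hlf and Trpc6 was not tested.

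Endothelial cells also use Robo4, Fgd5, Myct1 and Mecom. Among their markers, Tie1 and Sox17 were at the floor on all 6 arrays, and Cdh5 and Pecam1 reached at most 30.8 and 30.2. Of 10 endothelial markers 5 could be tested and 0 passed, with 1 at an unadjusted p under 0.05, Egfl7, a gene that blood progenitors also express, at 110, 303 and 234 in deficient against 243, 491 and 396 in proficient cells. The endothelial markers, Egfl7 included, summed to 414, 600 and 504 in deficient cells of litters 1, 2 and 3. They summed to 523, 798 and 671 in proficient cells, so the sum was lower for the deficient cells within every litter. The single genes did not share this. Of the 5 tested, 3 had a log2 difference below 0 and 2 above, with a median of -0.02, and 1 was lower in all 3 litters. The part of this sum in the results was not tested. In limma 0 of 6 megakaryocyte, 0 of 3 erythroid and 0 of 6 lymphocyte markers tested passed, with 1, 0 and 1 at an unadjusted p under 0.05. In litters 1, 2 and 3 the megakaryocyte markers summed to 1186, 2554 and 1308 in deficient and 525, 1962 and 1287 in proficient cells. Lymphocyte markers summed to 976, 1767 and 1614 against 575, 1042 and 1180. Both sums were thus higher for the deficient cells within every litter, though barely so for megakaryocyte markers in litter 3. Of the 6 megakaryocyte markers, 3 had a log2 difference above 0 and 3 below, with a median of 0.02. Of the 6 lymphocyte markers tested, 5 were above 0 and 1 below, with a median of 0.29. The part of both sums in the results was not tested either. Erythroid markers summed to 702, 1807 and 1284 against 409, 3260 and 1940, higher in litter 1 and lower in litters 2 and 3. Hba-a1, Alas2, Cd79a, Cd3g and Cd4 were at the floor throughout.

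Some technical values also moved. Spike-in controls, added to every sample (18 probe sets), had a mean log2 signal of 11.9 to 12.8 in deficient and 11.6 to 11.9 in proficient samples, higher in the deficient array of each litter and most so in litter 1. The 18S ribosomal probe sets, at 7.26, 10.4 and 11.8 against 7.21, 9.51 and 11.2 log2 units, exceeded those of the proficient litter mate each time. The part of either in the results was not tested. The excess of the 3′ over the 5′ probe set of Actb was 4.97 against 4.05 log2 units in litter 1, but 4.27 against 4.43 and 3.30 against 3.70 in litters 2 and 3. Its part in the results was not tested.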

How the data were processed

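LSK cells of 6 samples were profiled on Affymetrix Mouse Genome 430 arrays, version 2.0, after repeated linear amplification of the RNA (labels' protocols). The authors deposited linear signal intensities, for which the submitters' processing notes name MAS5. No value is below 30; no source used here says how this floor was set. Amplification favours 3′ ends, and the floor hides differences among weak genes.

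Groups and litters came from the labels, which name litter mates by number. Samples of a litter deviated from their groups together (r = 0.77, 0.67 and 0.46 in litters 1, 2 and 3), so litter was a block. No arrays were identical. Gene symbols came from the platform's 2016 annotation: 34945 had 1 symbol, 932 several and 9160 none, and only the first were used. All 10 gene symbols were found in RefSeq genes of GRCm38.p6. Signals were taken as log2(signal + 30), 64 control probe sets were left out, and 22519 probe sets with a mean signal at or above the median of 32.6 were fitted with limma 3.58.1 in R 4.3.3 (variance trend, Benjamini-Hochberg over all, threshold 0.05). The fit was tested on simulated data.

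The members, lists and tests were chosen with earlier results of these data known. Named were all members, list genes that passed, the 5 genes nearest in profile, Ercc1, and marker genes. Some genes of the lists were not analysed here.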

Additional observations from a re-analysis of the deposited data

How the results depend on the processing

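The direction of the 10 genes held under the 16 alternatives wherever a gene could be tested, except for Mecom, which turned to -0.036 with quantile normalization. Of 156 values of these genes, 1 changed sign; among the 30 that lost the call were all values of Prdm16, Hlf and Trpc6 without a litter term, without any 1 litter and without a filter. The count of genes called, 3 in the main fit with litter as the replicate block, was 3 with a pseudocount of 1 or 100, quantile normalization, median centring and the mean over probe sets (there Prdm16, Trpc6 and Fgd5), and 2 with the stricter filter at the 75th percentile (11260 probe sets, which left out Trpc6, Fgd5, Ctnnal1 and Robo4). It was 1, Prdm16, with no variance trend. It was 0 with no replicate block, 0 with no filter, 0 with only the probe sets at the floor on all arrays left out, and 0 without litter 1, 2 or 3, with or without the block. The cause of these losses was not tested.

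The count over all probe sets, 188, was 0 under the same settings that gave 0 for the 10 genes, 114 with no variance trend and 332 with median centring. The unadjusted p was under 0.05 for 579 with no replicate block, 1825 of 45037 with no filter, 2009 of 27991 without those at the floor, and 1288 to 1705 without 1 litter under the block. The 4 other long-term stem cell genes called became 0 under those settings too, and 3 to 5 under the rest, while the relatives stayed at 0. The median of the 10 genes was -0.46 with a pseudocount of 100 and between -0.88 and -0.60 otherwise, -0.88 to -0.61 without 1 litter. Leaving out the probe sets at the floor, and leaving out a litter without the block, were chosen after seeing the data. Signal over the floor limits Trpc6, Robo4, Fgd5 and Ctnnal1.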
